A study of Saccharomyces cerevisiae with 48 samples.

Results

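FUS1, FUS2, FIG1, PRM1 and RVS161 of Saccharomyces cerevisiae were chosen by symbol as genes that act when a pair of mating cells fuses. All 5 were found among the 6256 genes of the array, each with 2 spots of its probe. In the files they are YCL027W (FUS1, chromosome III), YMR232W (FUS2, chromosome XIII), YBR040W (FIG1, chromosome II), YNL279W (PRM1, chromosome XIV) and YCR009C (RVS161, chromosome III). The study measured total RNA of MATa yeast on 48 Agilent 1-colour arrays labelled with Cy3, 1 array per strain and condition. The treated arrays came from cultures in YPAD medium at mid-log phase given 5 µM alpha factor, the pheromone of the opposite mating type, for 30 min. They comprised 43 haploid MATa segregants of a cross labelled YJM789 X S96 and the MATa parental lines HS959 and S96. SEG8 is 1 of the 43 segregants, and HS959 is listed only as a parental line. The 3 untreated arrays held HS959, S96 and SEG8 without alpha factor. The labels describe 1 array for each strain in a condition and no repeat cultures, so each p-value reflects the scatter among the arrays at hand, which may be technical.

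Alpha factor binds the receptor Ste2 on MATa cells and acts through a G protein and a MAP kinase cascade on the transcription factor Ste12. The cells stop dividing, grow a projection towards their partner, and then remove the cell walls between them and merge the plasma membranes. Fus1 and Fus2 act at the projection tip before wall removal, Rvs161 works with Fus2 there, and Prm1 and Fig1 are membrane proteins that act when the plasma membranes merge. Nuclear fusion follows with a different set of proteins.

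Across the 48 arrays the median gene intensity was between 9804 and 23353, and between 94.0% and 99.9% of gene spots were well above background. All 5 genes were well above background on every array, and no gene spot was saturated. Levels are given as log2 of the processed intensity minus the array's 75th percentile, so 0 is that percentile. A level belongs to its own probe and is not set against that of another gene. The arrays sat on 6 slides: all 4 parental arrays were on the first slide and both SEG8 arrays on the second. Bulk RNA cannot tell fewer expressing cells from less RNA per cell.

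The labelled mating type was checked against marker genes. All 7 markers of MATa cells rose with alpha factor. On the treated arrays of HS959, S96 and SEG8 their summed level was 33.4 to 54.6 times the array's 75th percentile. On the untreated arrays it was 13.5 to 19.4 times, and over the 43 treated segregants 27.5 to 52.9 times. Of 5 markers of MATalpha cells, 4 rose as well, among them the pheromone genes MF(ALPHA)2, by 5.05, and MF(ALPHA)1, by 1.57 on the log2 scale (limma, adjusted p = 0.00250 and 0.00492). SAG1 rose by 1.91 and STE3 by 1.32, while AFB1 did not pass the test (0.11). The summed level of the 5 was 1.55 to 3.73 times on the treated arrays of HS959, S96 and SEG8. On the untreated arrays it was 0.553 to 0.819 times, and over the 43 treated segregants 0.477 to 4.16 times. None of the 5 was below background everywhere. Most of these markers moved with the treatment in the same arrays as the fusion genes, and their part in the results that follow was not tested.

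All 5 fusion genes rose with alpha factor, and for each of them every treated array lay above every untreated array. The comparison asks how alpha factor changed expression within HS959, S96 and SEG8, each measured with and without it. It was fitted with limma across 6252 genes with strain as a block, two-sided, and p-values were adjusted by the Benjamini-Hochberg method over all of these genes. At an adjusted p under 0.05, 15% of all genes were called higher with alpha factor and 35.5% were called in either direction. In 14.4% of all genes the 3 treated arrays lay above the 3 untreated ones. The rises of the fusion genes were between 2.69-fold for RVS161 and 89.4-fold for FIG1.

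FUS1 encodes a membrane protein of the projection tip with an SH3 domain on its cytoplasmic side. Its level was 1.89 in HS959, 2.12 in S96 and 1.87 in SEG8 with alpha factor, against -1.38 in HS959, -1.50 in S96 and -1.80 in SEG8 without it. The treated and untreated arrays were far apart in each strain. The change was 3.27 in HS959, 3.62 in S96 and 3.67 in SEG8, with a mean of 3.52 ± 0.22 (log2, SD, n = 3 strains). This is an 11.4-fold rise (limma, adjusted p = 0.000610), higher in 3 of 3 strains, and ranked 35 among all genes tested by size of rise.

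FUS2 encodes a cytoplasmic protein that gathers at the projection tip and binds Rvs161. With alpha factor its level was 2.06 in HS959, 2.19 in S96 and 2.03 in SEG8, against -2.98 in HS959, -3.20 in S96 and -3.32 in SEG8 without it. The groups did not overlap, and the 3 strains lay within 0.16 of each other when treated, against 0.35 when untreated. The change averaged 5.26 ± 0.19 (log2, SD, n = 3 strains), a 38.4-fold rise (limma, adjusted p = 0.000378), and ranked 11.

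PRM1 encodes a membrane protein that spans the plasma membrane several times and acts in the merging of the membranes. Treated levels were 2.22 in HS959, 2.37 in S96 and 2.12 in SEG8, against untreated levels of -3.33 in HS959, -3.41 in S96 and -4.34 in SEG8. Here too the groups were separate, and SEG8 without alpha factor was lower than both untreated parents. The change was 5.55 in HS959, 5.78 in S96 and 6.46 in SEG8, and its mean was 5.93 ± 0.47 (log2, SD, n = 3 strains). The rise of 61.1-fold (limma, adjusted p = 0.000643) ranked 7.

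FIG1 encodes a membrane protein of the low-affinity calcium influx that pheromone sets off, and also takes part in membrane fusion. It had a level of 2.73 in HS959, 3.24 in S96 and 2.60 in SEG8 with alpha factor, against -2.02 in HS959, -3.86 in S96 and -4.99 in SEG8 without it. The strains differed far more without alpha factor, over a range of 2.97, than with it, over 0.64, and HS959 was the highest untreated array. The change was accordingly uneven: 4.75 in HS959, 7.10 in S96 and 7.60 in SEG8. Its mean was 6.48 ± 1.52 (log2, SD, n = 3 strains), an 89.4-fold rise (limma, adjusted p = 0.00396) that ranked 5. With 1 array per strain and condition, the difference between strains in this change was not tested. Leaving out HS959 gave a change of 7.35, and leaving out SEG8 gave 5.93, with the call kept in both (adjusted p between 0.00266 and 0.0294 over the alternatives).

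RVS161 encodes a BAR domain protein that curves membranes, with Rvs167 in endocytosis and with Fus2 in cell fusion. Its level was 2.50 in HS959, 2.61 in S96 and 2.24 in SEG8 with alpha factor, against 0.93 in HS959, 1.09 in S96 and 1.04 in SEG8 without it. Unlike the other members it lay above the 75th percentile on the untreated arrays too. The change was 1.57 in HS959, 1.53 in S96 and 1.19 in SEG8, with a mean of 1.43 ± 0.21 (log2, SD, n = 3 strains). This 2.69-fold rise (limma, adjusted p = 0.00263) ranked 157.

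The 95% intervals of the 5 changes were ± 0.29 (FUS1), 0.27 (FUS2), 0.51 (PRM1), 1.53 (FIG1) and 0.28 (RVS161) on the log2 scale. By these intervals RVS161 changed least and FUS1 next. The interval of FIG1 took in the changes of FUS2 and PRM1, so FIG1 cannot be placed above either. PRM1 and FUS2 differed by less than the sum of their intervals.

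**Figure D1:**
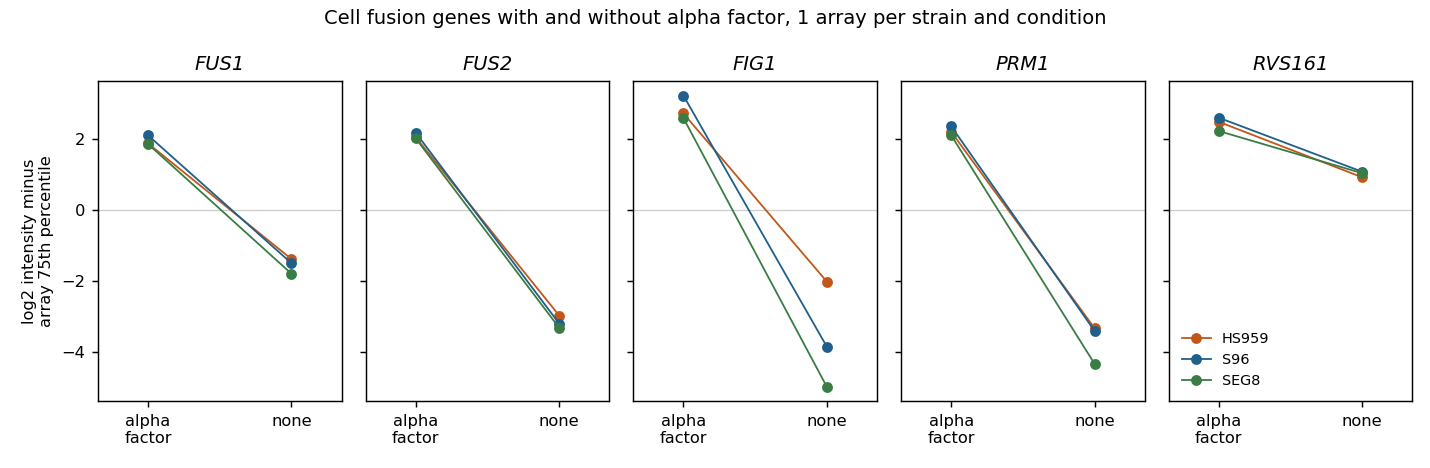
Level of each gene (log2 intensity minus the array's 75th percentile) with 5 µM alpha factor for 30 min, on the left of each panel, and without it, on the right. Each point is 1 array and each line joins the 2 arrays of a strain; FIG1 shows the widest spread without alpha factor, from -4.99 in SEG8 to -2.02 in HS959, and RVS161 the smallest change.

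Other genes of mating were examined as lists, described by counts in the same fit and by their median beside that of all genes, which was -0.04 (log2). Each list's counts stand against those of all 6252 genes, of which 940 (15%) rose, 1280 fell and 4032 did not pass the test. Of 25 other genes with a part in cell fusion, 11 rose, 4 fell and 10 did not pass the test, with a median change of 0.26. Their leading changes were in FIG2, an adhesin-like cell wall protein (4.81), the MAP kinase gene FUS3 (1.40), FAR1, which acts in arrest and in choosing the projection site (1.30), and AXL1, a protease that processes a-factor (1.19). The polarisome gene SPA2 fell by 1.08, and RVS167, whose product pairs with Rvs161, had a change of 0.19 (limma, adjusted p = 0.215). Thus the partner of RVS161 in endocytosis did not pass the test, while RVS161 itself did; the difference between these changes was not tested.

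Of 20 genes listed for the endocytic actin patch, 2 rose, 1 fell and 17 did not pass the test, with a median change of 0.17. Over all 6252 genes 940 rose, 1280 fell and 4032 did not pass. CRN1 (coronin) rose by 0.34 and VRP1 (verprolin) by 0.31. The 1 that fell, by 1.14, was SUR7, listed here although its product is a membrane protein of stable cortical patches. Of 16 polarity genes, 2 rose, 7 fell and 7 did not pass, with a median of -0.17. Among them the Cdc42 effector gene GIC1 fell by 3.18 and its paralog GIC2 rose by 0.97, while the mucin gene MSB2 fell by 1.01.

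Calcium genes were set beside FIG1. Of 15 genes of calcium influx and calcineurin, 6 rose, 4 fell and 5 did not pass, with a median of 0.24. RCN2 (1.80) and RCN1 (1.31) encode regulators of calcineurin, CNA1 (1.27) a catalytic subunit of it, and CMK2 (1.55) a calmodulin-dependent kinase. The genes of the high-affinity calcium channel, MID1 and CCH1, fell by 0.65 and 0.33 (limma, adjusted p = 0.00697 and 0.0303).

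Upstream and downstream of fusion, 13 of 20 pheromone signalling genes rose, none fell and 7 did not pass, with a median of 0.70. The largest rises there were of genes whose products restrain the response: the Ste12 inhibitor gene DIG2 (2.00), the phosphatase gene MSG5 (1.80), BAR1, whose product degrades alpha factor (1.59), and SST2, which acts on the G protein (1.56). Of 12 nuclear fusion genes, 6 rose, 4 fell and 2 did not pass, with a median of 1.50. PRM3, which acts at the nuclear envelope, rose by 8.02, PRM2 by 6.43, CIK1, whose product works with the kinesin Kar3, by 4.08, and KAR3 by 3.24. Of 11 other PRM and FIG genes, 7 rose, 1 fell and 3 did not pass, with a median of 3.70, PRM6 (7.64) being the other of the leading genes. Among those that did not pass, PRM8 changed by 4.14 in S96 and 3.97 in SEG8, but by -0.93 in HS959. Its level was far lower in HS959 than in S96 (HS959 minus S96 of -11.5). Some genes stand in more than 1 list, such as FUS3, FAR1, FIG2, PRM2 and PRM3.

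**Figure D2:**
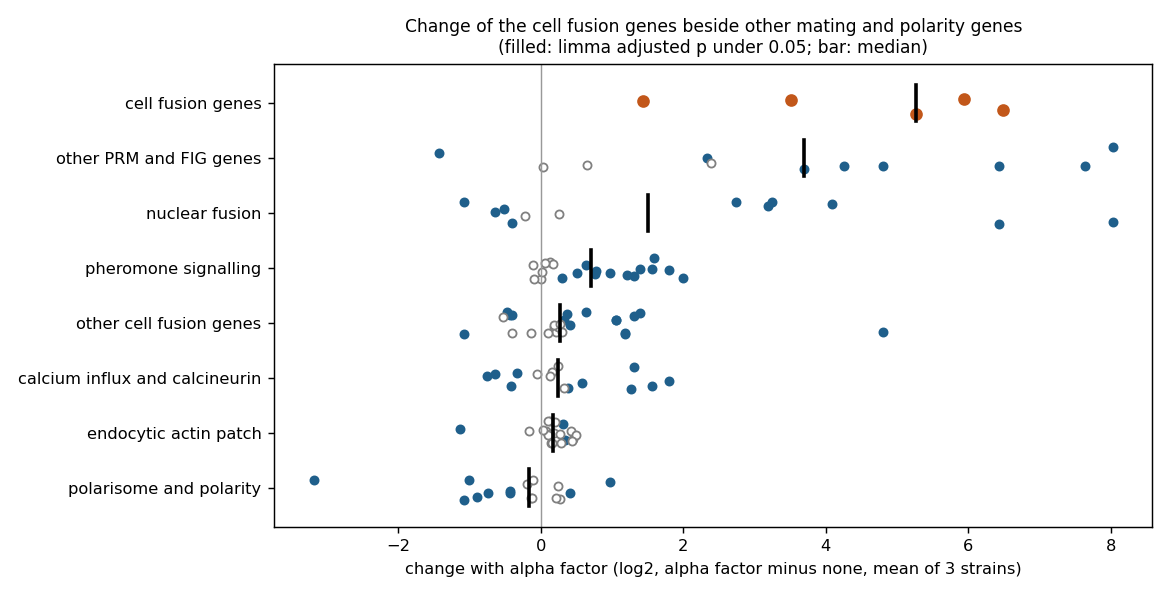
Change with alpha factor (log2, alpha factor minus none, mean of HS959, S96 and SEG8) of the 5 cell fusion genes in the top row and of 7 other gene lists below. Filled points passed limma's test at an adjusted p under 0.05, open grey points did not, and bars are medians; the 5 fusion genes lie between 1.43 and 6.48, whereas the medians of the polarity and actin patch lists are -0.17 and 0.17.

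The genes next to the fusion genes in chromosome order were looked up after results were known. Of 9 such neighbours measured, 2 rose, 2 fell and 5 did not pass the test, against 35.5% of all genes called in either direction. The rises were of ERG24, a sterol synthesis gene beside PRM1, by 1.26, and of ADY2, an acetate transporter gene beside RVS161, by 0.68 (limma, adjusted p = 0.00250 and 0.0165). RNQ1 beside FUS1 fell by 0.62 and SAT4 beside RVS161 by 0.41. Neither neighbour of FUS2 or of FIG1 passed the test.

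None of the 5 genes was called between the parents, against 20.6% of all genes. This comparison of HS959 with S96 used the same fit, with the difference taken as shared by both conditions. HS959 minus S96 was -0.06 ± 0.36 for FUS1, 0.05 ± 0.34 for FUS2, -0.04 ± 0.63 for PRM1 and -0.14 ± 0.35 for RVS161 (log2, 95% interval). The limma adjusted p of these genes was between 0.483 and 0.919. For FIG1 it was 0.67 ± 1.88 (adjusted p = 0.526). On the treated arrays HS959 was lower by 0.51 than S96 in FIG1, and on the untreated arrays it was higher by 1.84, so the shared difference describes neither condition. The sign also turned in FUS1 (-0.23 treated, 0.12 untreated), FUS2 (-0.13, 0.23) and PRM1 (-0.16, 0.08), so their small shared values average opposite differences. In RVS161 it did not (-0.12, -0.16). At an unadjusted p under 0.05, 0 of the 5 were called by limma in this test, against 39.7% of all genes.

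Among the 43 treated segregants the 5 genes were high in every strain, and their levels lay close together. FUS1 had a lowest level of 1.31 (SEG45), a median of 1.82 and a highest level of 2.10 (SEG40), and FUS2 had 1.82 (SEG37), 2.04 and 2.35 (SEG32). FIG1 had 2.30 (SEG24), 2.63 and 3.16 (SEG3), and PRM1 had 1.88 (SEG24), 2.08 and 2.43 (SEG4). RVS161 had 1.80 (SEG45), 2.38 and 2.71 (SEG3). No segregant came near an untreated array in the first 4 genes. The lowest segregant exceeded the highest untreated array by 2.69 in FUS1, 4.79 in FUS2, 4.31 in FIG1, 5.21 in PRM1 and 0.72 in RVS161.

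From the lowest to the highest segregant the levels covered 1.73-fold for FUS1, 1.44-fold for FUS2, 1.82-fold for FIG1, 1.47-fold for PRM1 and 1.88-fold for RVS161. The SD over segregants was 0.151 (FUS1), 0.127 (FUS2), 0.186 (FIG1), 0.136 (PRM1) and 0.163 (RVS161), against a median of 0.290 over all genes (log2). These are small spreads: the 5 SDs stood between the 2.17 and 17.4 percentiles of all genes. Bright probes spread less on these arrays. Among the 370 genes at least as bright as the dimmest member the median SD was 0.200, and between 4.05% (FUS2) and 40.5% (FIG1) of them had a smaller SD than the member.

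No repeat of a treated segregant was measured, so the spread was set against the residual spread of the 6 paired arrays in a one-sided F test. None of the 5 was called more variable than this noise (Benjamini-Hochberg adjusted p between 0.365 for RVS161 and 1.00 for FIG1), against 30.8% of all genes. The noise SD was 0.135 for FUS1, 0.127 for FUS2 and 0.131 for RVS161, and 0.237 for PRM1 and 0.713 for FIG1. In FIG1 and PRM1, and barely in FUS2 (0.1272 against 0.1265), it thus exceeded the spread over segregants. This noise includes the uneven change between strains described above. For FIG1 the 3 untreated arrays ranged over 2.97 and the 3 treated ones over 0.64, while all the segregants were treated. Against this noise a one-sided test could not call the spread of FIG1 (0.186), PRM1 (0.136) or FUS2 (0.127), so it decides nothing for these genes. For FUS1 and RVS161 the noise rested on 2 residual and 2.61 prior degrees of freedom. A missing call there does not show that the segregants are alike.

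The segregants were also compared with the treated parents. The level lay below both parents in 30 of 43 segregants for FUS1, 22 for FUS2, 33 for FIG1, 34 for PRM1 and 32 for RVS161, and above both in 0, 7, 0, 1 and 2 of them in the same order of genes. With quantile normalization the counts below both parents were 32, 8, 18, 21 and 3, and those above both were 11, 21, 23, 8 and 19. The more frequent side thus turned for FUS2, FIG1 and RVS161. With that scaling the treated parents nearly coincided in FUS1 (16.909 in S96 and 16.915 in HS959) and in FIG1 (17.678 and 17.665). Few segregants could then lie between them in these genes. Segregants minus parents was -0.18 for FUS1, -0.06 for FUS2, -0.34 for FIG1, -0.20 for PRM1 and -0.16 for RVS161 (log2, n = 43 and 2). None of the 5 was called (limma, adjusted p between 0.761 and 1.00), against 0.0321% of all genes, and 1 of 5 had an unadjusted p under 0.05 (FIG1 at 0.0187), against 6.07% of all genes. The difference depended on which parent was kept: without S96 it was -0.06 for FUS1 and -0.09 for FIG1, and without HS959 it was -0.29 for FUS1 and -0.60 for FIG1. For FUS2 it was 0.00 without S96 and -0.13 without HS959, for PRM1 -0.12 and -0.28, and for RVS161 -0.10 and -0.22, in the same order. With quantile normalization the difference was -0.08 for FUS1, 0.05 for FUS2, 0.003 for FIG1, -0.06 for PRM1 and 0.04 for RVS161. With slide as a block it was -0.03 for FUS1, -0.13 for FUS2, -0.17 for FIG1, -0.10 for PRM1 and -0.12 for RVS161. Both treated parents were on the first slide with only 4 of the segregants.

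**Figure D3:**
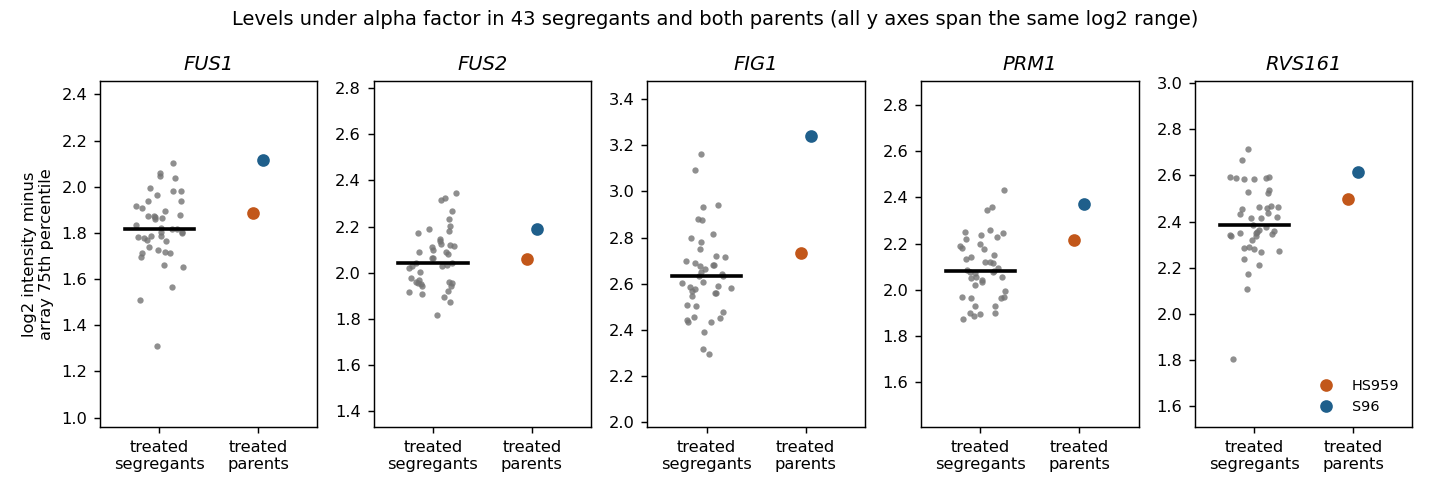
Level of each gene with alpha factor (log2 intensity minus the array's 75th percentile) in the 43 segregants, on the left, with their median as a bar, and in the parents HS959 and S96, on the right, 1 array each. All axes span the same log2 range. SEG45 stands lowest for FUS1 (1.31) and RVS161 (1.80), and with this scaling no segregant exceeds S96 in FUS1 or FIG1.

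Slides were tested as the batch that the file headers give, with 4 to 8 segregants on each. A slide effect was called for 1 of 5 genes, FIG1 (limma F test, adjusted p = 0.0315), against 48% of all genes. Slide means of FIG1 were between 2.51 and 2.82. With quantile normalization or normexp background correction this call was lost, and 0 of 5 were called.

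With 75th percentile scaling, the levels of the 5 genes were correlated over the 43 treated segregants. For all 10 pairs Pearson's r was positive, between 0.46 (FUS1 and FUS2) and 0.68 (FIG1 and RVS161), and a two-sided permutation test called each (100000 permutations, Benjamini-Hochberg adjusted over the 10 pairs, p between 6.67e-05 and 0.00167). Spearman's rho was between 0.41 and 0.72 (permutation test, adjusted p between 1e-04 and 0.00769). Without the 2 segregants farthest from the median of the first gene of a pair, r was between 0.37 and 0.62. Within slides it was between 0.45 and 0.72, and all 10 pairs were called. The permutation test did not set a pair against pairs of other genes. A scale is each member's median r, without centring, with the 365 other genes at least as bright as the dimmest member. It was 0.74 for FIG1, above the r of FIG1 with every other member (0.47 to 0.68). For RVS161 it was 0.56, above its r with PRM1 (0.47) and below that with FUS1, FUS2 and FIG1. For FUS1 (0.35), FUS2 (0.38) and PRM1 (0.36) it lay below their r with every other member.

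The brightness of the array moved with these levels. Over the segregants r between level and array median intensity was -0.54 for FUS1, -0.38 for FUS2, -0.63 for FIG1, -0.55 for PRM1 and -0.53 for RVS161, as a description of arrays that share the same scaling. SEG24, the brightest array at 23353, was among the 5 lowest segregants for all 5 genes, and SEG32, the dimmest at 9804, among the 5 highest for 4 of them. With quantile normalization SEG24 was among the 5 lowest for 0 genes and SEG32 among the 5 highest for 0. SEG45 was among the 5 lowest for the same 3 genes, FUS1, FIG1 and RVS161, under both scalings, and SEG40 was among the 5 highest for 3 genes, and for 4 with quantile normalization.

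Pairs depended on the scaling. With quantile normalization 6 of 10 pairs were called, with normexp background correction 6, with array median intensity regressed out 7, and without SEG24 and SEG32 all 10 (permutation tests, adjusted over the 10 pairs). Called under each of the 8 alternatives that gave a test were 4 pairs: FUS1 with PRM1, FUS1 with RVS161, FUS2 with PRM1 and FIG1 with RVS161. For these the r was 0.39, 0.47, 0.42 and 0.34 with quantile normalization. FUS2 and RVS161, whose products bind each other, had r of 0.64, of 0.40 with quantile normalization, and of 0.23 with normexp (permutation test, adjusted p = 0.141), where the pair was not called.

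**Figure D4:**
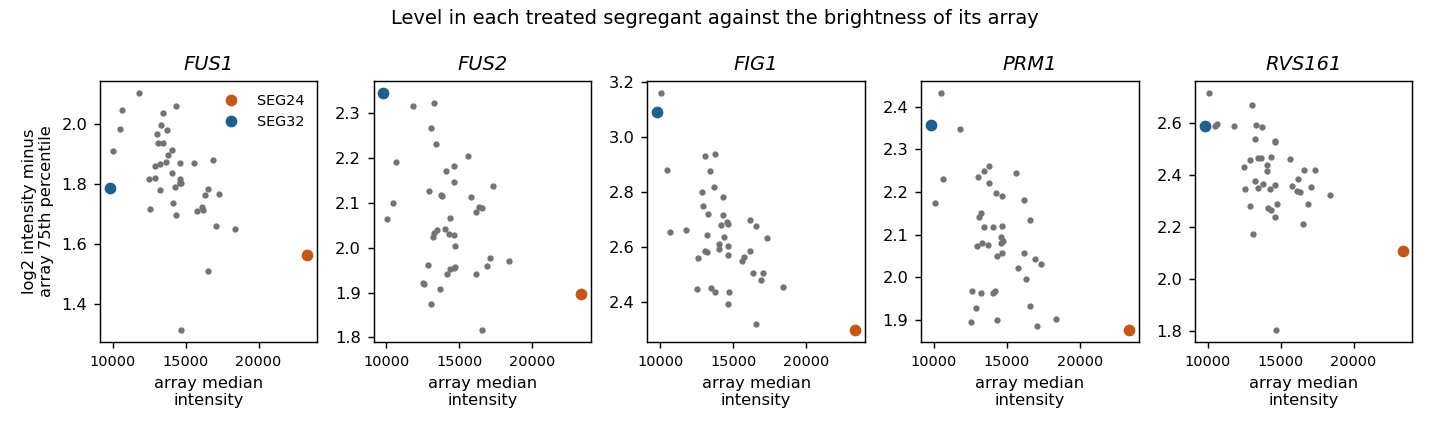
Level of each gene (log2 intensity minus the array's 75th percentile) in the 43 treated segregants against the median intensity of the array in scanner units. Each point is 1 segregant; SEG24 is the brightest array and SEG32 the dimmest, and levels were lower on brighter arrays for all 5 genes (r between -0.63 and -0.38).

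**Figure D5:**
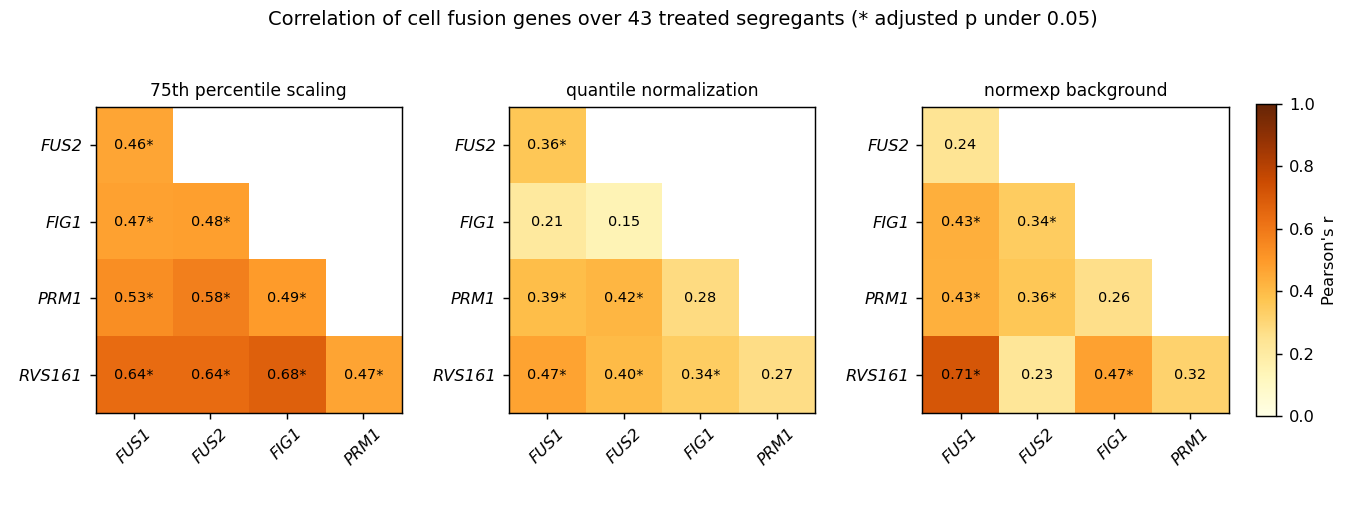
Pearson's r between the fusion genes over 43 treated segregants with 75th percentile scaling, quantile normalization and normexp background correction. Asterisks mark an adjusted permutation p under 0.05: 10, 6 and 6 of the 10 pairs have one.

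Genes with the likest pattern were sought over the 43 segregants, as Pearson's r of levels centred within slides, among 6226 genes. FUS1 was most like RVS161 (0.69), PRM2 (0.67) and the septin gene CDC10 (0.64). For FUS2 they were PRM2 (0.77), YMR304C-A (0.75) and the proteasome subunit gene PRE4 (0.74), and for PRM1 they were PRM2 (0.78), FUS2 (0.72) and the cyclin gene PCL2 (0.67). PRM2, which rose by 6.43 with alpha factor, thus stood among the 3 likest genes of 3 members. FIG1 was most like 3 ribosomal protein genes, RPL6A, RPL17A and RPS18A (0.89 each), and RVS161 was most like ADK1 (0.80), RPL12B (0.79) and HXK2 (0.79). None of these 6 genes was called with alpha factor: their changes lay between -0.11 (ADK1) and 0.14 (HXK2). The median r, without centring, with the 365 other genes at least as bright was 0.74 (FIG1), 0.56 (RVS161), 0.35 (FUS1), 0.38 (FUS2) and 0.36 (PRM1), against -0.04 to 0.04 with all other genes.

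With quantile normalization the ribosomal protein genes left these places. FIG1 was then most like QDR3 (0.67), CSM4 (0.56) and ARO10 (0.55), and RVS161 most like PGS1 (0.74), CDC10 (0.70) and SOL2 (0.69). FUS2 was most like CIK1 (0.67), YDR124W (0.66) and PRM2 (0.62), and PRM1 most like PRM2 (0.74), YDR124W (0.63) and IMO32 (0.60). FUS1 had ARK1 (0.68), RVS161 (0.68) and PBN1 (0.65). PRM2 was among the 3 likest genes of FUS2 and PRM1 under both scalings, and RVS161 among those of FUS1. FIG1 and RVS161 shared none of their 3 likest genes between the scalings.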

How the data were processed

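The deposited scanner files hold, per the file headers, the processed signal intensity of 13048 spots per array from Agilent Feature Extraction 10.5.1.1, already background-subtracted, on a design built on sacCer1. The submitters' processing notes name version 9.1. The deposited value table equalled these intensities in 626304 of 626304 cells. The 536 control spots of each array stayed out, as did spots marked as outliers (between 0 and 97). The duplicate spots of a gene were averaged as log2 after subtracting the array's 75th percentile, and 5 gene values were missing.

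Genes entered the paired fit if well above background on at least 2 of its 6 arrays. The variance and slide tests needed at least 22 of the 43 segregant arrays, and the variance test the first filter too. Segregants against parents needed at least 22 of the 45 treated arrays. These filters kept 6252 genes (paired fit), 6230 (variance, slides) and 6232 (segregants against parents). Fits used limma 3.58.1 in R 4.3.3 (lmFit, eBayes). The paired fit had 2 residual degrees of freedom and 2.61 prior ones. Strain was the block because the labels give each of the 3 strains once per condition. Tests were checked on simulated data, and the number of arrays limits the precision. Quantile normalization, median centring, normexp (offset 50), the deposited table, other filters, slide as a block and leaving out a strain were tried.

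Named were all members, up to 4 called genes per list with the largest change and the 3 likest genes of each member. MID1, CCH1, RVS167, PRM8 and the neighbours were chosen after their values were seen, and SPA2 was named in the polarity list. Members and lists were chosen with earlier results of these data known. Of the array's gene names, 5756 matched the R64 RefSeq table and 500 did not.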

Additional observations from a re-analysis of the deposited data

How the results depend on the processing

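All 5 fusion genes stayed called higher with alpha factor under all 10 alternatives, and none was called between the parents, among segregants or against the parents under any alternative tried. The count of genes called with alpha factor, 2220, was between 610 (without SEG8) and 1636 (without S96) when a strain was left out, 827 without HS959, and 657 with no replicate block. The count between the parents, 1290, was 738 without SEG8. That of genes varying among segregants, 1919, was 1110 within slides and between 417 (without SEG8) and 1793 when a strain was left out of the noise, 724 without HS959. Genes called between segregants and parents, 2, were 1 with normexp, 0 with slide as a block, and between 0 and 7 when a parent was left out (7 without S96, 0 without HS959). Fusion genes with a slide effect, 1, were 0 with quantile normalization and with normexp. Correlated pairs, 10, were 6 with each of these. Fewer samples enter when a strain is left out, and otherwise the cause was not tested. The regression on array intensity, the runs without SEG24 and SEG32 or SEG14, the slide test under other scalings and the likest genes under quantile normalization were chosen after seeing the data. These genes were flagged well above background, in at least 1 of their 2 spots, on all 48 arrays. The handling of background still moved some values: with normexp the SD of FUS2 over segregants was 0.191, against 0.127. With 1 array per strain and condition, a strain's own response cannot be tested.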
